A study of Homo sapiens with 11 samples.

Results

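Cells take up, store, export and sense iron with a small group of proteins, and 9 of their genes were followed here through a time course of hypoxia: TFRC and SLC11A2 (uptake), FTH1, FTL and NCOA4 (storage and its release), SLC40A1 (export) and ACO1, IREB2 and FBXL5 (sensing). They were chosen by symbol, as 9 of the 60676 genes counted, and all 9 were among the 19981 genes with enough counts to test. The cells were RWPE1, an immortalized and non-tumorigenic line of human prostate epithelial cells, grown in keratinocyte serum-free medium with bovine pituitary extract and epidermal growth factor. Of the 11 RNA-seq libraries, 3 came from untreated cells in normoxia (called 0 h), and 3, 3 and 2 from cells kept at 1% oxygen for 6, 12 and 24 h. The medium of the hypoxic cells also received 10 mM HEPES buffer, so oxygen and buffer cannot be told apart in any comparison with 0 h. Another library of the 24 h group was not analysed here. The labels number the replicates but do not say that they came from separate cultures, so p-values measure only the spread between these libraries.

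Iron enters most cells bound to transferrin, through the transferrin receptor, and leaves the endosome through the transporter DMT1. Iron that is not used at once is held in the shell of ferritin, built from heavy and light chains, and is recovered when ferritin is degraded. The iron regulatory proteins IRP1 and IRP2 read the iron level of the cytosol by binding a hairpin in messenger RNA, the iron-responsive element. Bound to a hairpin in the 5′ untranslated region (UTR), they block translation, and bound to hairpins in the 3′ UTR of the transferrin receptor message, they protect it from decay. Oxygen bears on the same system, because IRP1 loses its iron-sulfur cluster and IRP2 its stability according to both iron and oxygen.

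The hairpins that set the members apart are shown first, because they decide on which side of the system a message stands. A search of the principal GENCODE transcript of each gene looked for a bulged C, 5 base pairs, the loop CAGTGN and a lower stem with at least 3 of 5 bases paired. CAGTG, the first 5 bases of the loop, is in capitals, and positions are on GRCh38. The match in the SLC11A2 message, and a weaker one in IREB2 that is not printed, needed 1 unpaired base in the 3′ arm.
TFRC hairpin 1, 3′ UTR, chr3:196050980-196051006, minus strand: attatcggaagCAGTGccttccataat
TFRC hairpin 2, 3′ UTR, chr3:196050576-196050602, minus strand: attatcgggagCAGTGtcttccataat
TFRC hairpin 3, 3′ UTR, chr3:196050511-196050537, minus strand: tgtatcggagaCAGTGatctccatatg
TFRC hairpin 4, 3′ UTR, chr3:196050464-196050490, minus strand: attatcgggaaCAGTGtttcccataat
SLC11A2, 3′ UTR, chr12:50988269-50988296, minus strand: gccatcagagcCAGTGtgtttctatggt
FTH1, 5′ UTR, chr11:61967575-61967601, minus strand: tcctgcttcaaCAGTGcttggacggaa
FTL, 5′ UTR, chr19:48965336-48965362, plus strand: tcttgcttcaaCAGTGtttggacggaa
SLC40A1, 5′ UTR, chr2:189580662-189580688, minus strand: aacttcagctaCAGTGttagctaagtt

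Thus both uptake genes carried the hairpin in the 3′ UTR and both ferritin genes and the exporter carried it in the 5′ UTR, with 1 match in each message except for the 4 in TFRC. The ACO1, FBXL5 and NCOA4 transcripts held no match, which says only that these letters are not in those transcripts. Without the allowance for an unpaired base, 75 of 19701 principal coding transcripts (0.381%) held a match, and 40 (0.203%) held it within a UTR.

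Between 27496009 and 49488345 reads per library were counted. Levels are given as CPM, counts per 1000000 counts, after scaling by TMM. Its factor was 0.539 for 24 h replicate 2 and between 0.851 and 1.32 for the other 10 libraries, so that library stands apart. The word called is used of a gene with a Benjamini-Hochberg adjusted p under 0.05, over the tested genes, in the quasi-likelihood test of edgeR fitted on all 11 libraries. After this scaling a lower level is lower relative to the bulk of the genes, and not always a smaller share of the counted reads. Whether fewer cells or less RNA per cell lie behind it cannot be told apart. All 8 epithelial markers (KRT5, KRT14, KRT17, KRT8, KRT18, TP63, CDH1 and EPCAM) were at 1 CPM or more in every library. KLK3, the secretory product of luminal prostate cells, had 0 counts in all 11, and so had the erythroid marker HBB.

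Members rose and fell in hypoxia. At 12 h, 7 of the 9 genes were called against 0 h, of which FTL, NCOA4 and ACO1 were higher and TFRC, SLC11A2, IREB2 and FBXL5 lower. At 6 h, 5 were called, with 2 higher and 3 lower, and at 24 h 6 were called, with 3 in each direction. In the background of all tested genes 52.8%, 51.2% and 61.2% were called at 6, 12 and 24 h, so calls were common among all genes and the number of members called is no result about them. By direction, 25.1%, 24.2% and 29.9% of all tested genes were higher and 27.7%, 27.1% and 31.3% lower. Where hypoxic and normoxic libraries of a member do not overlap below, this is a description. The share of all tested genes that separate from normoxia was not counted. The median log2 fold change of the members was 0.29, 0.43 and 0.05, beside -0.00, -0.03 and -0.06 over all tested genes. With library size in place of TMM the median of all tested genes moved to -0.32, -0.50 and -0.97, and the members then split into 0 higher and 3 lower at 6 h, 1 and 4 at 12 h, and 1 and 5 at 24 h. Changes are therefore given relative to the bulk of the genes. On that other scale the falls of SLC11A2, IREB2 and FBXL5 were larger, between -0.99 and -2.12 at every time, and TFRC stood at -1.35 and -1.67 at 12 and 24 h.

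**Figure D1:**
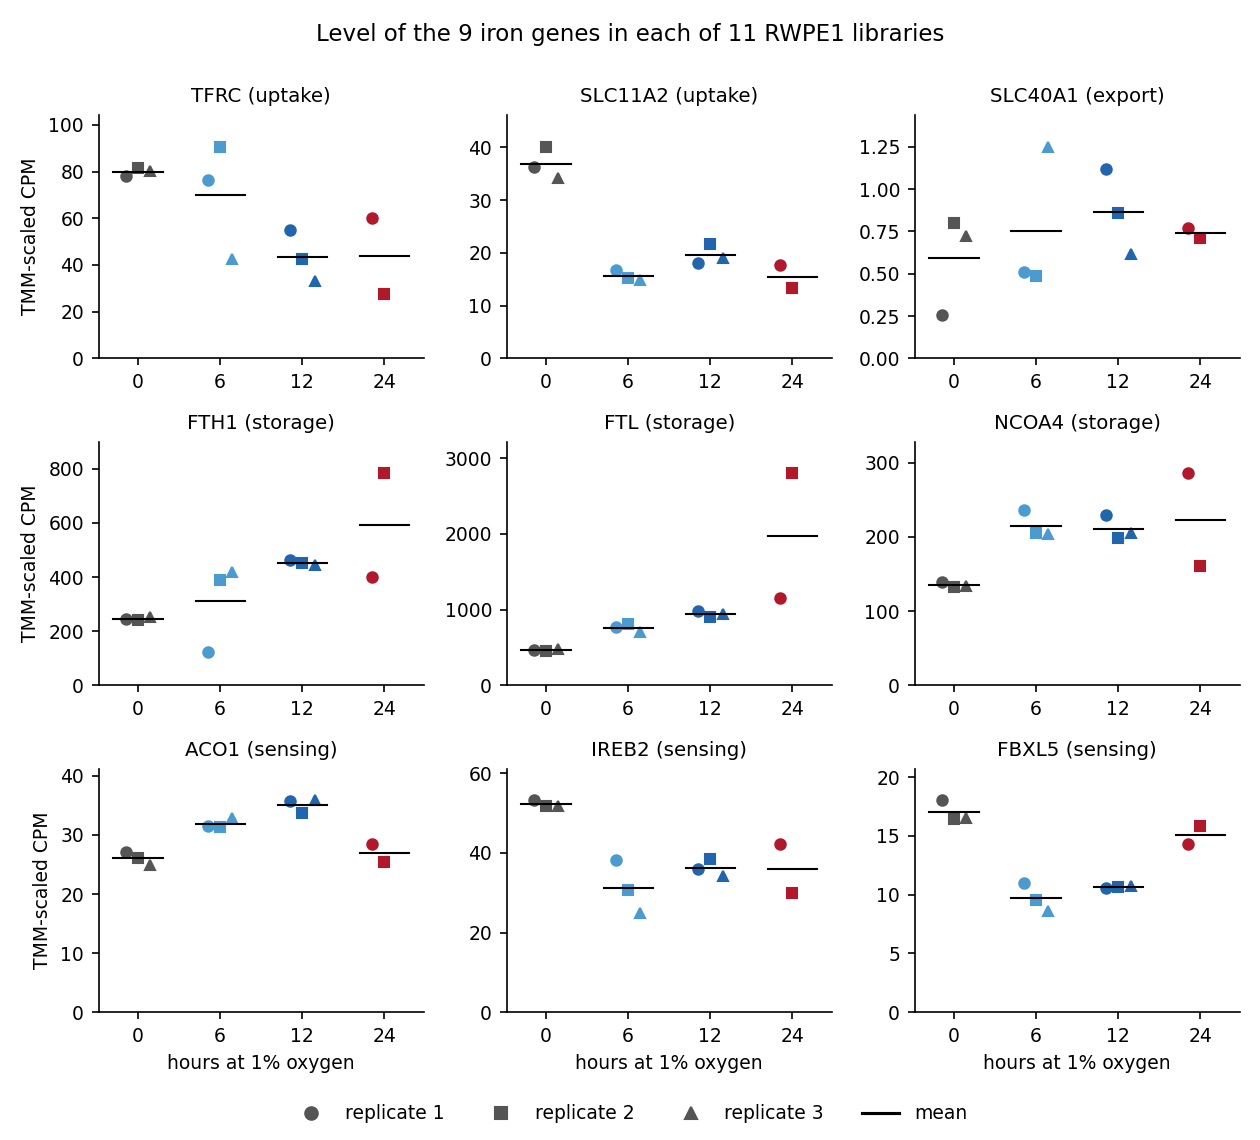
TMM-scaled CPM (vertical axes, from 0) of the 9 iron genes in each of 11 RWPE1 libraries by hours at 1% oxygen (horizontal axes, 0 being normoxia), with a symbol for each replicate and a line at the mean. Every hypoxic library lies below all 3 normoxic libraries for SLC11A2, IREB2 and FBXL5, and above them for FTL and NCOA4, while FTH1 in 6 h replicate 1 lies below the other 10. The share of all tested genes that separate in this way was not counted.

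Per kilobase of the principal transcript the genes spanned a wide range of levels. In normoxia the light chain of ferritin was highest, at 539 ± 12.4 CPM per kilobase (SD, n = 3), followed by FTH1 at 204 ± 4.34, NCOA4 at 39.0 ± 0.908 and TFRC at 16.0 ± 0.367. SLC11A2 (8.92 ± 0.741) and IREB2 (8.25 ± 0.132) came next and overlapped in their libraries. FBXL5 (4.88 ± 0.251) and ACO1 (3.504 ± 0.155) were lower still, and SLC40A1 was lowest at 0.178 ± 0.089. These levels hold the FTH1 row alone, without the pseudogene rows described below. With those rows added to their parents, and not divided by length, FTH1 stood at 1343 CPM and FTL at 489 in normoxia. At 24 h they stood at 5573 and 2089, so which of them is higher turned on the rows counted. By the single rows FTL, FTH1, NCOA4 and TFRC kept the first 4 places by mean level per kilobase at every time, and SLC40A1 the last. Between them the order by mean changed: IREB2 stood above SLC11A2 at 6, 12 and 24 h. The libraries of IREB2 overlapped those of ACO1 and of SLC11A2 at 6 h, and so did those of SLC11A2 and ACO1 at 12 h. At 24 h the ranges of TFRC and IREB2, of FBXL5 and SLC11A2, and of SLC11A2 and ACO1 overlapped.

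Both uptake genes fell, SLC11A2 at all 3 times and TFRC at 12 and 24 h. TFRC (ENSG00000072274, chr3:196012511-196082153, minus strand) encodes transferrin receptor 1, which brings transferrin-bound iron into the cell. Its level was 78.0, 81.6 and 80.3 CPM in the normoxic libraries and 76.3, 90.7 and 42.6 at 6 h. At 12 h it was 54.9, 42.7 and 33.1, and at 24 h 60.1 and 27.7. All 5 libraries of 12 and 24 h lay below the 3 normoxic ones, whereas at 6 h only replicate 3 was clearly lower and replicate 2 was the highest of all. The log2 fold change was -0.20 (SE 0.30, adjusted p = 0.599 by edgeR) at 6 h, -0.88 (SE 0.30, adjusted p = 0.0271) at 12 h and -0.86 (SE 0.34, adjusted p = 0.044) at 24 h. The 12 h call was lost without any 1 of the 0 h libraries (adjusted p = 0.0546 to 0.0638) and without 12 h replicate 2 (0.0623) or 3 (0.107). The 24 h call was lost without any 1 of the 0 h libraries (0.0705 to 0.082), without 6 h replicate 1 (0.0585) and without 24 h replicate 2, where the log2 fold change was -0.43 (0.279), with sample quality weights in limma-voom (0.157) and with only the 2 groups fitted (0.074).

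SLC11A2 (ENSG00000110911, chr12:50979401-51028566, minus strand) encodes DMT1, the divalent metal transporter that carries ferrous iron across the endosomal and plasma membranes. Its level was 36.2, 40.2 and 34.1 CPM in normoxia, 16.8, 15.2 and 14.9 at 6 h, 18.2, 21.6 and 19.0 at 12 h, and 17.7 and 13.3 at 24 h. The hypoxic libraries did not reach the normoxic ones at any time. By edgeR the log2 fold change was -1.24 (SE 0.15, adjusted p = 2.8e-05) at 6 h, -0.91 (SE 0.15, adjusted p = 0.000311) at 12 h and -1.25 (SE 0.17, adjusted p = 5.6e-05) at 24 h, so the gene stood at 0.425, 0.532 and 0.422 times its normoxic level. These 3 calls held under every alternative and without any single library. The gene makes messages with and without the hairpin in the 3′ UTR, which are joined in the gene's count.

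SLC40A1 (ENSG00000138449, chr2:189560590-189583758, minus strand) encodes ferroportin, the exporter of iron from cells. It was hardly counted, with 11 to 30 reads in the normoxic libraries, 15 to 66 at 6 h, 27 to 33 at 12 h, and 13 and 18 at 24 h. Its level ranged from 0.254 to 0.800 CPM in normoxia and from 0.486 to 1.25 CPM in hypoxia, and the groups overlapped at every time. The log2 fold changes by edgeR were 0.41 (SE 0.45), 0.54 (SE 0.46) and 0.33 (SE 0.55) at 6, 12 and 24 h, with adjusted p = 0.462, 0.345 and 0.616. A difference was not detectable at this depth.

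The light chain of ferritin rose at all 3 times, and the heavy chain was called at 24 h. FTL (ENSG00000087086, chr19:48965309-48966879, plus strand) encodes the light chain, which helps to lay down the mineral core of the shell. Its level was 471, 458 and 479 CPM in normoxia, 767, 814 and 699 at 6 h, 981, 898 and 941 at 12 h, and 1149 and 2798 at 24 h. Each group lay above all libraries of the earlier ones, and the libraries at 24 h were far apart. By edgeR the log2 fold change against 0 h was 0.70 (SE 0.25, adjusted p = 0.0334) at 6 h, 1.00 (SE 0.25, adjusted p = 0.00565) at 12 h and 2.07 (SE 0.28, adjusted p = 4.79e-05) at 24 h. The 12 h and 24 h calls held under every alternative. The 24 h value was 1.27 without 24 h replicate 2, and with library size alone the 12 h and 24 h values were 0.53 and 1.02. The 6 h call was lost without any 1 of the 0 h libraries (adjusted p = 0.0814 to 0.0941), if 6 h replicate 1 (0.0726) or 2 (0.0925) or 12 h replicate 2 (0.0521) was left out, with library size alone (0.0828) and with at least 10 counts required in every library (0.0542).

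FTH1 (ENSG00000167996, chr11:61959718-61967634, minus strand) encodes the heavy chain, which oxidizes ferrous iron for storage. Its level was 245, 241 and 251 CPM in normoxia, 462, 451 and 444 at 12 h, and 399 and 783 at 24 h, but 123, 390.5 and 419.5 at 6 h. Replicate 1 at 6 h was thus far below the normoxic libraries, while the other 2 of its group, and all libraries of 12 and 24 h, were above them. The log2 fold change by edgeR was 0.34 (SE 0.36, adjusted p = 0.44) at 6 h, 0.88 (SE 0.36, adjusted p = 0.0566) at 12 h and 1.27 (SE 0.39, adjusted p = 0.0141) at 24 h. Without 6 h replicate 1 the 6 h value was 0.73 (adjusted p = 0.0243) and the 12 h value 0.88 (0.00542), and the 12 h value was also called without 24 h replicate 1 (0.0317) or 2 (0.0297). DESeq2 (0.0392) and limma-voom with sample quality weights (0.000279) called the 12 h value too. So did the fits without the filter on low counts (3.29e-05), with only the 2 groups (6.2e-06) and with a replicate block (0.0433). In all, 9 of 21 alternatives called it and 12 did not. Without 24 h replicate 2 the 24 h value was 0.68 and no longer called (0.196), nor was it called with sample quality weights (0.124) or with library size alone, where it was 0.24 (0.57).

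How the reads of the heavy chain fell on rows is uncertain. The genome carries many ferritin pseudogenes, copies made from the spliced message, and 25 rows named as FTH1 pseudogenes held 4.26 to 13.5 times as many counts as FTH1 itself. Of the 1129 windows of 75 bases, the read length, in the 1203-base principal transcript, 380 (33.7%) recur exactly elsewhere in the genome. At least 1 of them recurs in each of 12 annotated pseudogenes. In addition, 73.2% of the transcript lies within exons that GENCODE gives to BEST1 on the opposite strand. BEST1 had only 3 to 40 counts. The sources used here state neither the strand setting nor how reads with several matches were counted, so a read may have been counted in several rows.

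FTH1 and its pseudogene rows together gave 1315, 1392 and 1321 CPM in normoxia, 1776, 2067 and 2302 at 6 h, 3114, 2580.3 and 2842 at 12 h, and 4358 and 6787 at 24 h. On this sum each group lay above all libraries of the earlier ones, 6 h replicate 1 included. The FTH1 row made up 17.3% to 19.0% of the sum in normoxia, 18.9% and 18.2% in 6 h replicates 2 and 3, but 6.90% in 6 h replicate 1, and 9.15% and 11.6% at 24 h. The row of FTH1P12 was low in the same library, with 232 counts against 1164 and 2306 in the other 2, while that of FTH1P7 was not, with 10499 against 11376 and 21307. With the pseudogene rows added to their parents, an alternative chosen after the data were seen, the heavy chain's log2 fold change by edgeR was 0.61 (SE 0.20, adjusted p = 0.0235) at 6 h, 1.08 (SE 0.21, adjusted p = 0.000951) at 12 h and 2.05 (SE 0.23, adjusted p = 1.13e-05) at 24 h. The light chain's was 0.72, 1.03 and 2.09 in the same fit. A read counted in several rows enters such a sum more than once. FTL was less exposed: 16 FTL pseudogene rows held 0.042 to 0.075 times the FTL counts, and 93 of its 797 windows (11.7%) recur elsewhere.

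**Figure D2:**
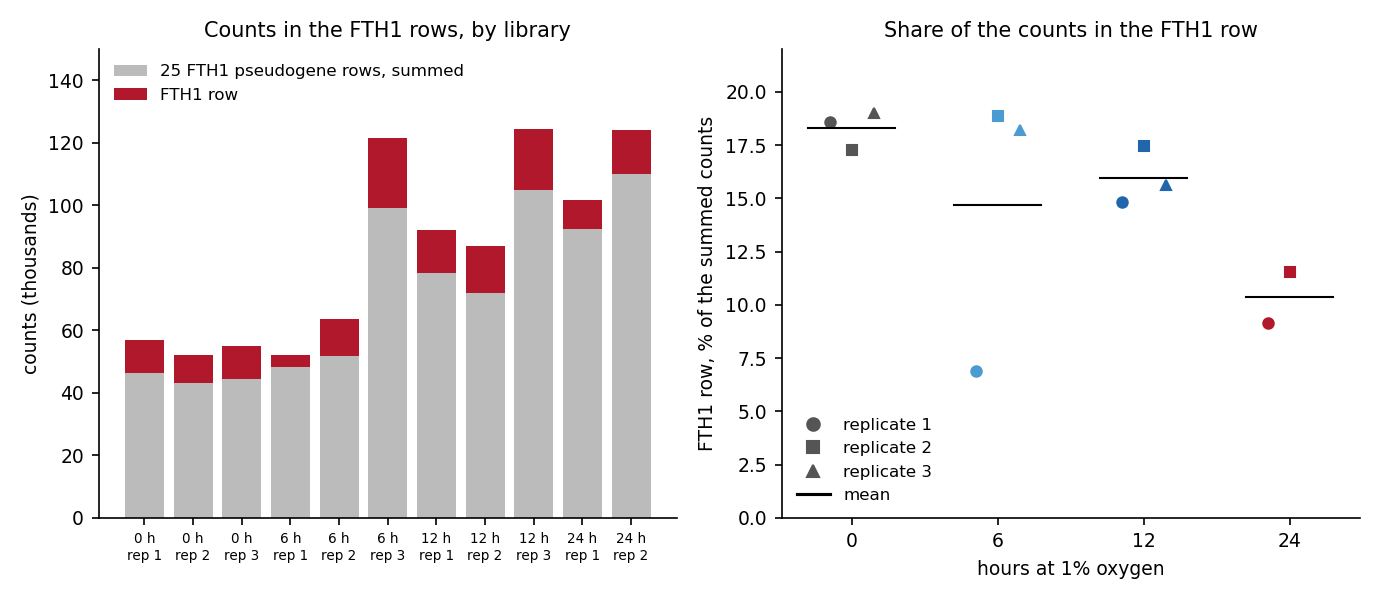
Left, counts (vertical axis, from 0, scaled as labelled) in each library, with the 25 FTH1 pseudogene rows summed in grey and the FTH1 row in red. Right, the FTH1 row as a percentage of that sum by hours at 1% oxygen, with a symbol for each replicate and a line at the mean. The share was 17.3% to 19.0% in normoxia, 6.90% in 6 h replicate 1, and 9.15% and 11.6% at 24 h.

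NCOA4 (ENSG00000266412, chr10:46005088-46030623, minus strand) encodes the receptor that carries ferritin to the lysosome, where its iron is released. Its level was 139, 132 and 134 CPM in normoxia, 236, 205 and 204 at 6 h, 229, 198 and 206 at 12 h, and 285 and 160.1 at 24 h. All 8 hypoxic libraries lay above the normoxic ones. By edgeR the log2 fold change was 0.67 (SE 0.18, adjusted p = 0.00849) at 6 h, 0.64 (SE 0.18, adjusted p = 0.0115) at 12 h and 0.72 (SE 0.20, adjusted p = 0.00813) at 24 h. The rise was relative to the bulk of the genes: with library size alone the 3 values were 0.35, 0.17 and -0.11 and none was called (adjusted p = 0.314, 0.628 and 0.774). Without 24 h replicate 1 the 24 h value was 0.19 (0.234), and with only the 2 groups fitted it was 0.74 (0.0542).

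Among the sensing genes IREB2 fell at all 3 times, FBXL5 at 6 and 12 h, and ACO1 was called higher at 12 h alone, a direction that turned with library size. IREB2 (ENSG00000136381, chr15:78437431-78501453, plus strand) encodes IRP2, which is degraded when iron and oxygen are ample. Its level was 53.1, 51.7 and 51.7 CPM in normoxia, 38.3, 30.6 and 24.9 at 6 h, 35.99, 38.3 and 34.3 at 12 h, and 42.1 and 29.9 at 24 h. No hypoxic library reached the normoxic range. By edgeR the log2 fold change was -0.74 (SE 0.17, adjusted p = 0.00295) at 6 h, -0.53 (SE 0.17, adjusted p = 0.0205) at 12 h and -0.54 (SE 0.19, adjusted p = 0.0289) at 24 h. The 12 h call was lost without 0 h replicate 1 (adjusted p = 0.0566) or 12 h replicates 1 (0.0548) or 3 (0.0733). The 24 h call was lost without any 1 of the 0 h libraries (0.0548 to 0.0639) and without 24 h replicate 2, where the value was -0.33 (0.144), with sample quality weights (0.157) and with only the 2 groups fitted (0.0655).

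ACO1 (ENSG00000122729, chr9:32384603-32454769, plus strand) encodes IRP1, which is the cytosolic aconitase while it holds an iron-sulfur cluster and binds RNA without it. Its level was 27.2, 26.1 and 24.9 CPM in normoxia, 31.5, 31.4 and 32.9 at 6 h, 35.8, 33.7 and 35.8 at 12 h, and 28.5 and 25.4 at 24 h. The 6 h and 12 h libraries lay above the normoxic ones and the 24 h libraries among or just above them. By edgeR the log2 fold change was 0.29 (SE 0.12, adjusted p = 0.0512) at 6 h, 0.43 (SE 0.12, adjusted p = 0.0087) at 12 h and 0.05 (SE 0.13, adjusted p = 0.773) at 24 h. The 12 h call was lost without 0 h replicate 3 (0.0503) and without the filter on low counts (0.0952). With library size alone its direction turned at all 3 times, to -0.03, -0.04 and -0.85, the last of which was called (0.00418). The 6 h value was called under 7 of 21 alternatives. These were leaving out 24 h replicate 1 (0.0198) or 2 (0.0179), DESeq2 (0.00719), and limma-voom without (0.0439) and with sample quality weights (0.0114). The others were median-of-ratios factors (0.0449) and only the 2 groups fitted (0.0287).

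FBXL5 (ENSG00000118564, chr4:15604381-15681679, minus strand) encodes the iron- and oxygen-binding F-box protein that marks IRP2 for degradation. Its level was 18.02, 16.5 and 16.5 CPM in normoxia, 10.97, 9.57 and 8.60 at 6 h, 10.6, 10.7 and 10.8 at 12 h, and 14.3 and 15.9 at 24 h. The 6 h and 12 h libraries lay well below normoxia, and the 24 h libraries lay between, just below the normoxic ones. By edgeR the log2 fold change was -0.81 (SE 0.14, adjusted p = 0.000405) at 6 h, -0.67 (SE 0.14, adjusted p = 0.0017) at 12 h and -0.17 (SE 0.16, adjusted p = 0.351) at 24 h. The 6 h and 12 h calls held under every alternative. With library size alone the 24 h value was -1.10 and was called (0.000426).

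**Figure D3:**
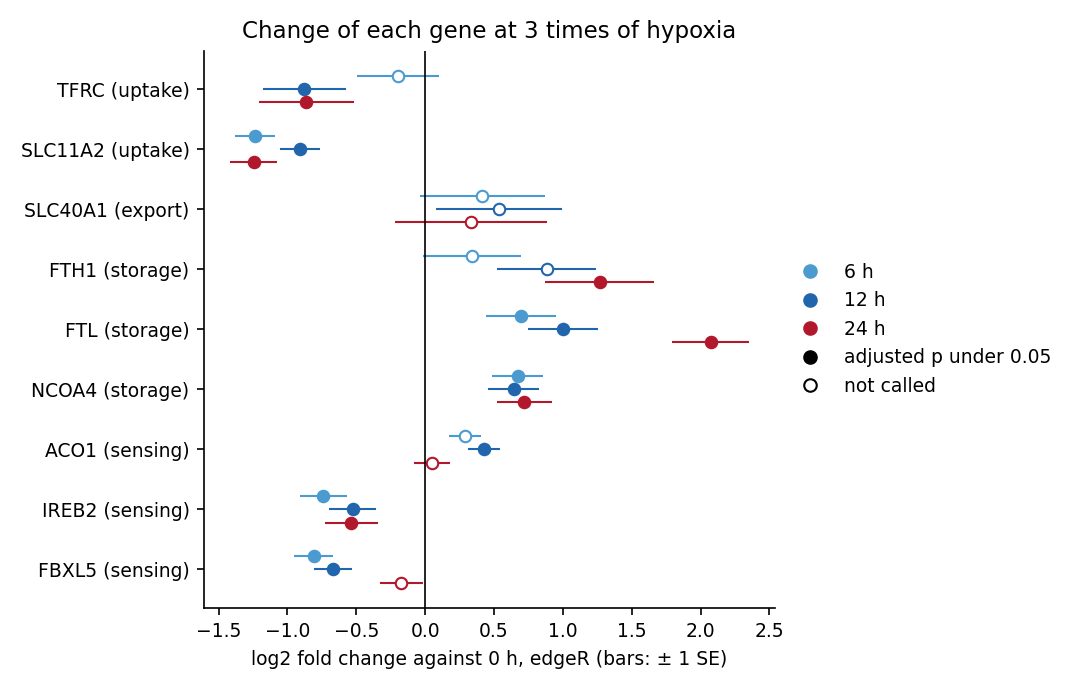
The log2 fold change against 0 h (horizontal axis) of each gene (vertical axis) at 6, 12 and 24 h by edgeR, with bars of 1 SE. Filled points have an adjusted p under 0.05. SLC11A2 and IREB2 lie below 0 and FTL and NCOA4 above 0 with all 3 points filled, and FTL at 24 h is farthest out at 2.07.

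The steps between the times of hypoxia were tested with the same fit. From 6 to 12 h, 0 of the 9 genes were called by edgeR, against 4.95% of all tested genes, and 2 had an unadjusted p under 0.05 (TFRC and SLC11A2). DESeq2 and limma-voom also called 0, and limma-voom with sample quality weights called TFRC (adjusted p = 0.00203). From 12 to 24 h, 3 of the 9 were called, against 28.4% of all tested genes, of which 15.1% were higher and 13.3% lower. FTL rose by 1.07 on the log2 scale (SE 0.28, adjusted p = 0.0139) and FBXL5 by 0.50 (SE 0.16, adjusted p = 0.0309), while ACO1 fell by 0.38 (SE 0.13, adjusted p = 0.0474). The libraries of 12 and 24 h did not overlap for these 3 genes, nor for SLC11A2, which was not called (adjusted p = 0.146). The share of all tested genes without overlap was not counted. Each call rested on single libraries: without 24 h replicate 2 the values were 0.28 (adjusted p = 0.181), 0.41 (0.101) and -0.32 (0.115). Without 12 h replicate 2 they were 1.03 (0.0528), 0.49 (0.0832) and -0.42 (0.0804). The ACO1 and FBXL5 calls were also lost without 12 h replicate 1 (0.0856 and 0.0585) or 3 (0.128 and 0.0859) and without 0 h replicate 1 (0.0766 and 0.0516) or 3 (0.0775 and 0.0543), and that of ACO1 without 0 h replicate 2 (0.0719) or 6 h replicate 2 (0.0567). NCOA4, at 0.08 (SE 0.20, adjusted p = 0.799), was called higher without 24 h replicate 2 (0.42, 0.0415) and lower without 24 h replicate 1 (-0.42, 0.0242). Without 24 h replicate 1 SLC11A2 was called lower (-0.59, 0.0121). With library size alone the FTL, FBXL5 and ACO1 differences were 0.48 (0.071), 0.04 (0.908) and -0.81 (0.0182). The ACO1 call was lost under 14 of 21 alternatives, limma-voom (0.0508) and median-of-ratios factors (0.0601) among them, and fitting only the 2 groups lost all 3 calls (0.12 for FTL, 0.137 for FBXL5 and 0.165 for ACO1).

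Ratios of counts within a library do not depend on how libraries are scaled. The count of IREB2 was 1.95, 1.98 and 2.08 times that of ACO1 in normoxia, 1.22, 0.973 and 0.758 times at 6 h, 1.01, 1.14 and 0.957 times at 12 h, and 1.48 and 1.18 times at 24 h. All 8 hypoxic libraries lay below the 3 normoxic ones, with a difference in mean log2 ratio of -0.90 (exact two-sided permutation p = 0.0121, the smallest that the possible splits can give, and 0.0364 adjusted by Benjamini-Hochberg over the 3 ratios tested). When each library was left out in turn the difference ran from -0.97 to -0.83, and the 24 h libraries alone gave -0.60. How many other pairs of genes keep hypoxic and normoxic libraries apart was not counted, so the separation is not shown to be particular to this pair.

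The ratio of TFRC to FTH1, uptake against storage, was 0.319, 0.339 and 0.320 in normoxia, 0.622, 0.232 and 0.102 at 6 h, 0.119, 0.095 and 0.074 at 12 h, and 0.151 and 0.035 at 24 h. The groups overlapped only through 6 h replicate 1, the library with few FTH1 counts. The difference in mean log2 ratio was -1.36 (exact two-sided permutation p = 0.0848, 0.127 adjusted over the 3). Without 6 h replicate 1 it was -1.69 (exact permutation p = 0.0167), and with the pseudogene rows added -1.82 (exact permutation p = 0.0121).

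The ratio of FTH1 to FTL was 0.520, 0.526 and 0.524 in normoxia, 0.160, 0.480 and 0.600 at 6 h, 0.471, 0.502 and 0.472 at 12 h, and 0.347 and 0.280 at 24 h. In hypoxia it lay below normoxia in 7 of 8 libraries, the exception being 6 h replicate 3. The difference in mean log2 ratio was -0.44 (exact two-sided permutation p = 0.206, also 0.206 adjusted over the 3). Leaving out any other single library than that exception gave exact permutation p = 0.217 to 0.311. Without 6 h replicate 3 the difference was -0.53. Its exact permutation p of 0.0167 was fixed by leaving out the exception and is no evidence. With the pseudogene rows added to their parents the difference was -0.01 (exact permutation p = 0.945), so this ratio turned on which rows were counted.

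**Figure D4:**
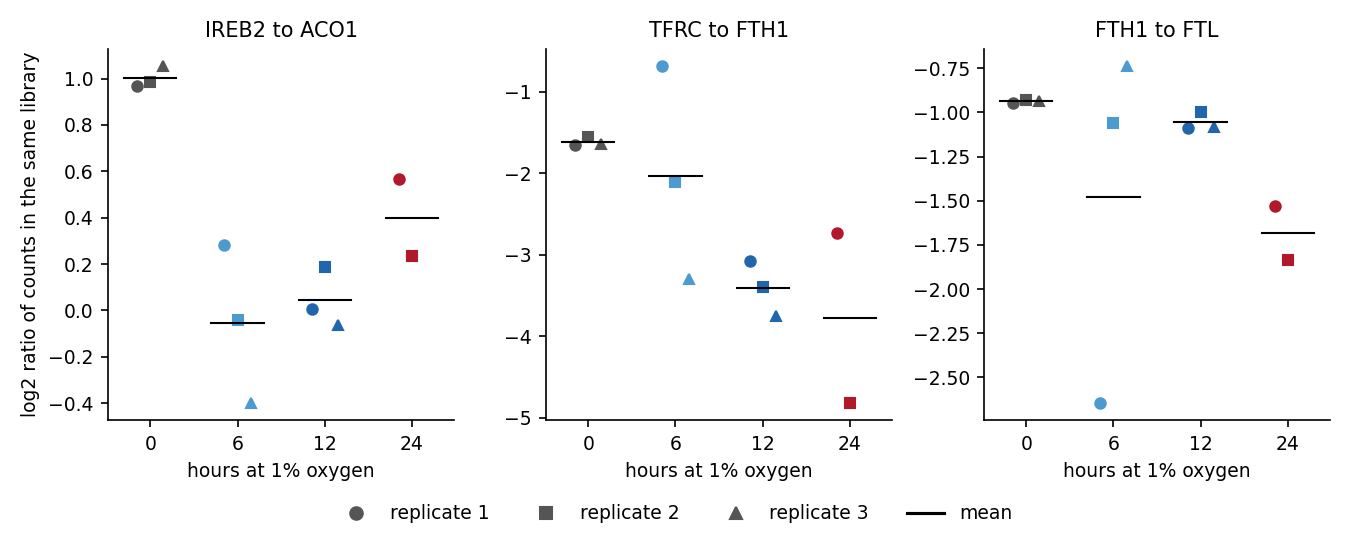
The log2 ratio of the counts of 2 genes in the same library (vertical axes, with a scale for each panel) by hours at 1% oxygen, with a symbol for each replicate and a line at the mean. The IREB2 to ACO1 ratio is lower in all 8 hypoxic libraries than in normoxia, and 6 h replicate 1 lies apart in the panels that hold FTH1.

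The promoters were searched on either strand for ACGTG, 1 form of the core to which hypoxia-inducible factors bind. Other forms of that core were not searched. The RefSeq windows on GRCh38 ran from 250 bases before to 50 after the gene start. Of 35116 promoter entries 7518 (21.4%) held ACGTG. Counted by gene, 3 of the 8 members with an entry held it. SLC11A2 had 4 entries and NCOA4 and IREB2 2 each, all without a match. The count by gene and the share by entry are thus not alike, and no excess is read from them. FTH1 is not in the table. The windows around the 3 matches are printed because TFRC, FTL and FBXL5 moved differently: FTL rose at all 3 times, TFRC fell at 12 and 24 h and FBXL5 fell at 6 and 12 h. The motif or its reverse complement CACGT is in capitals, and in FBXL5 a match on the other strand overlaps by 4 of the 5 bases, 1 base before the one shown. Positions count from the RefSeq gene start, which for TFRC and FBXL5 is not the outer end of the GENCODE span given above, and the FBXL5 window lies within that span. A match is a description and not a binding site.
TFRC, position -88 from the RefSeq start, chr3:196082164-196082188, minus strand: tcgcgagcgtACGTGcctcaggaag
FTL, position -11, chr19:48965288-48965312, plus strand: ccgccctagcCACGTcccctcgcag
FBXL5, position -119, chr4:15655462-15655486, minus strand: gcgcccggtcACGTGggccgcaggg

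The wider machinery was read from a list of 82 further genes, of which 74 had enough counts to test. Of these 35 were called at 6 h (18 higher, 17 lower), 34 at 12 h (22 and 12) and 50 at 24 h (34 and 16). The median log2 fold change of the list was -0.04, -0.03 and 0.53, beside -0.00, -0.03 and -0.06 over all tested genes. With library size alone the split became 14 higher and 25 lower, 7 and 33, and 6 and 35. Of all tested genes 52.8%, 51.2% and 61.2% were called at these times, so neither these counts nor those of each role are a result about the list. Within each role the genes named below, except EPAS1 and RBX1, were called in the same direction at all 3 times and changed most. The direction of these genes, EPAS1 and RBX1 apart, was the same with library size alone and with median-of-ratios factors. With library size alone FLVCR1, SLC39A14, CPOX, CUL1, BMP6 and CDC14A were no longer called at 24 h (adjusted p = 0.183 to 0.885), nor were SLC39A14 (0.118), CPOX (0.338), CUL1 (0.15) and CDC14A (0.152) at 12 h, nor CUL1 at 6 h (0.0849). CPOX at 12 h was also not called with median-of-ratios factors (0.0548).

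**Figure D5:**
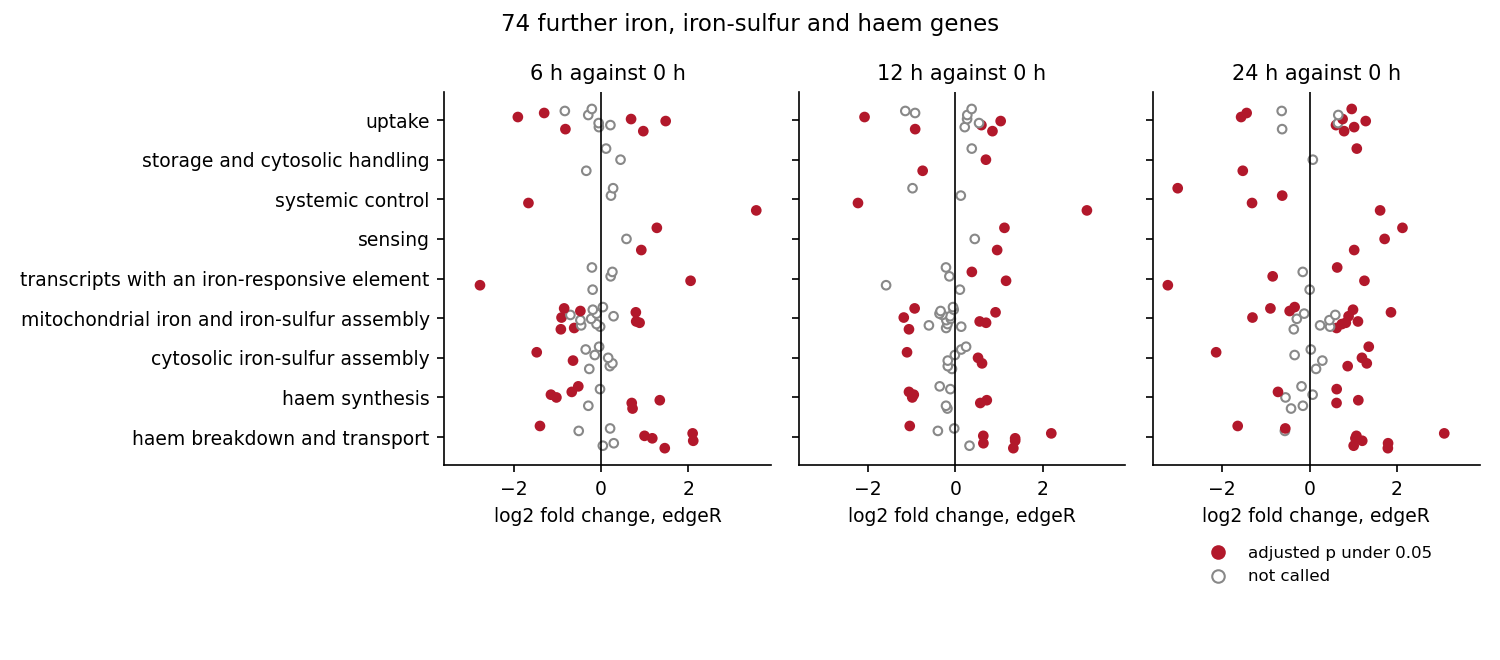
The log2 fold change by edgeR (horizontal axes) of 74 further iron, iron-sulfur and haem genes, 1 point each, grouped by role (vertical axis), at 6, 12 and 24 h against 0 h. Filled points have an adjusted p under 0.05. At 24 h 34 points are filled to the right of 0 and 16 to the left.

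Of 10 tested genes of haem breakdown and transport 5, 6 and 7 were higher and 1, 1 and 2 lower at 6, 12 and 24 h, with medians of 0.65, 0.64 and 1.06. HMOX2, the constitutive haem oxygenase, which frees iron from haem, went from 36.1 ± 0.633 CPM in normoxia to 155 ± 13.9 at 6 h, 166 ± 0.332 at 12 h (SD, n = 3) and 306 ± 132 at 24 h, in 2 libraries. By edgeR its log2 fold changes were 2.10, 2.20 and 3.08, with adjusted p = 5.24e-06, 6.14e-06 and 9.1e-07. FLVCR1, a transporter first described as a haem exporter, went from 12.3 ± 0.221 CPM to 53.3 ± 7.82 at 6 h, 31.9 ± 1.66 at 12 h and 28.4 ± 12.9 at 24 h, with log2 fold changes of 2.11, 1.37 and 1.20. Of 9 genes of haem synthesis 3, 2 and 3 were higher and 4, 3 and 1 lower. CPOX (coproporphyrinogen oxidase) rose by 1.35, 0.72 and 1.12, whereas PPOX, which carries out the next step, changed by -0.67, -1.06 and -0.72. Exons of other genes on the opposite strand cover 26.2% of those of PPOX.

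Among 12 tested genes of uptake outside the members, 3, 3 and 6 were higher and 3, 2 and 2 lower. SLC39A14, the zinc and iron transporter ZIP14, went from 41.5 ± 4.77 CPM to 116 ± 15.4 at 6 h, 85.3 ± 5.04 at 12 h and 101 ± 41.2 at 24 h, with log2 fold changes of 1.48, 1.04 and 1.28. STEAP2, a metalloreductase, changed by -1.90, -2.08 and -1.57 at a low level, 1.52 CPM in normoxia. Of the partners of FBXL5 in its ubiquitin ligase, SKP1 rose by 1.28, 1.13 and 2.13 and CUL1 by 0.92, 0.96 and 1.02. FBXL5 itself was called lower at 6 and 12 h and not called at 24 h. RBX1 was not called at 6 or 12 h (adjusted p = 0.104 and 0.212 by edgeR). At 24 h all 3 tested partners, RBX1 included, were called higher, as were 29.9% of all tested genes.

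In the assembly of iron-sulfur clusters, 18 mitochondrial genes gave 3, 3 and 7 higher and 5, 3 and 4 lower calls, and 9 cytosolic genes gave 0, 2 and 4 higher and 2, 1 and 1 lower. LYRM4, which holds the cysteine desulfurase complex together, rose by 0.80, 0.92 and 1.86. IBA57, a late factor for mitochondrial clusters, changed by -0.90, -1.18 and -1.31. NDOR1, the reductase that feeds electrons to cytosolic cluster assembly, changed by -1.47, -1.11 and -2.14, and 36.01% of its exonic bases are shared with another gene on the same strand. Of the genes that signal iron to the whole body, BMP6 gave 3.56, 3.01 and 1.61. It had 5 to 7 counts per library in normoxia, 55 to 73 at 6 h, 34 to 55 at 12 h and 10 in each library at 24 h. Its normoxic counts are under the filter's minimum of 10, so it was tested only through the hypoxic libraries, where it is high. ERFE changed by -1.66, -2.23 and -1.32. It had 70 to 91 counts per library in normoxia, and 7 to 48, 13 to 17 and 16 to 18 at 6, 12 and 24 h.

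Of 6 other tested genes listed for an iron-responsive element in their messages, 1, 2 and 2 were called higher and 1, 0 and 2 lower at 6, 12 and 24 h. EPAS1 encodes HIF-2α and holds a hairpin in its 5′ UTR (chr2:46297480-46297507), matched with 1 unpaired base in the 3′ arm. Its level was 227 ± 13.8 CPM in normoxia, 273 ± 12.4 at 6 h, 296 ± 17.3 at 12 h and 204 ± 12.8 at 24 h. Its log2 fold changes by edgeR were 0.26, 0.38 and -0.16, of which that at 12 h was called (adjusted p = 0.0236). CDC14A, a phosphatase with the hairpin in its 3′ UTR, as in TFRC, rose by 2.05, 1.16 and 1.26 from 10 to 13 counts per library in normoxia.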

How the data were processed

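Counts per Ensembl gene were deposited by the authors, who trimmed single-end reads (Trimmomatic), aligned them to GRCh38 (STAR) and counted them with featureCounts. The strand setting and the treatment of multi-mapping reads are not given in the sources used here. Symbols, positions and transcripts came from GENCODE release 44 on the same build. filterByExpr (minimum count 10, total 15) kept 19981 of 60676 genes, and 0 columns were left unused. edgeR 4.0.16 (TMM, glmQLFit, glmQLFTest) fitted all 11 libraries by time point in R 4.3.3, with Benjamini-Hochberg adjustment. limma 3.58.1 and DESeq2 1.42.0, other scalings and filters, the 2 groups compared alone, a replicate block and each library left out were alternatives. The fit was tested on simulated data. The members, lists and alternatives were chosen with earlier results of these data known. From the wider list, at most 2 genes per role called in 1 direction at all 3 times were named, by average change, with EPAS1. Some genes and sequences are not reported here. RBX1 was named after its values were seen, as were FTH1P7 and FTH1P12. Likeness was Pearson's r of log2 CPM over 11 libraries.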

Additional observations from a re-analysis of the deposited data

Results flagged for a closer look

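Between 12 and 24 h of hypoxia, measured against the same normoxic libraries, the effect differed by edgeR's test for 3 members. FTL differed by 1.07 on the log2 scale, FBXL5 by 0.50 and ACO1 by -0.38 (24 h minus 12 h, adjusted p = 0.0139, 0.0309 and 0.0474). On the TMM scale FTL moved further from its normoxic level, and FBXL5 and ACO1 moved back toward theirs. With library size alone the values against 0 h at 12 and 24 h were 0.53 and 1.02 for FTL and -1.14 and -1.10 for FBXL5. For ACO1 they were -0.04 and -0.85, so on that scale it moved away from normoxia. The 24 h group has 2 libraries, and replicate 2 has the lowest TMM factor, 0.539. Its part in these differences was not tested beyond leaving it out, which gave 0.28, 0.41 and -0.32.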

How the results depend on the processing

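Of 945 recomputed member values, 812 kept direction and side of the threshold. The called changes of SLC11A2 at 6, 12 and 24 h, FTL at 12 and 24 h, FBXL5 at 6 and 12 h and IREB2 at 6 h were kept by all 21 alternatives. Depth limits SLC40A1.

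With each library left out in turn, 4 to 6 members were called at 6 h, 5 to 8 at 12 h, 3 to 6 at 24 h, 0 to 1 from 6 to 12 h and 0 to 5 from 12 to 24 h, with the lowest count at 24 h without 24 h replicate 2. On the wider list the counts were 28 to 46, 26 to 44 and 39 to 51. The ratios ran from -0.53 to -0.25 (FTH1 to FTL), -1.69 to -1.10 (TFRC to FTH1) and -0.97 to -0.83 (IREB2 to ACO1), and the last was -0.60 with the 24 h libraries alone. TFRC to FTH1 was -1.82 with the pseudogene rows added.

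With sample quality weights in limma-voom, 3 members were called at 24 h, 1 from 6 to 12 h and 0 from 12 to 24 h, and 52 and 23 of the wider list at 12 and 24 h. Fitting only the 2 groups compared left 3 members at 24 h and 0 from 12 to 24 h, and dropping the filter gave 1 from 6 to 12 h and 1 from 12 to 24 h. Library size alone gave 3 at 6 h and 1 from 12 to 24 h. The cause was not tested.

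Same-numbered libraries did not deviate together: 2 of 15 correlations were over 0.1 (median -0.05), so the numbers were not taken as pairs. With the replicate block 5, 8 and 6 members were called at 6, 12 and 24 h, 0 from 6 to 12 h and 1 from 12 to 24 h, where the ACO1 and FBXL5 calls were lost (adjusted p = 0.0866 and 0.0762) and FTH1 at 12 h was gained (0.0433). TFRC from 12 to 24 h turned to -0.17 under the replicate block.

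Directions turned mostly in values that were not called. With library size alone TFRC (-0.32), FTH1 (-0.17) and NCOA4 (-0.28) turned from 12 to 24 h, SLC40A1 (-0.028), ACO1 (-0.013) and FBXL5 (-0.0088) from 6 to 12 h, NCOA4 (-0.11), SLC40A1 (-0.58) and ACO1 (-0.85) at 24 h, and ACO1 at 6 h (-0.029) and 12 h (-0.042). Without the filter TFRC (-0.067) and NCOA4 (-0.0075) turned from 12 to 24 h and ACO1 at 24 h (-0.065). With 10 counts in every library TFRC from 12 to 24 h (-0.018) and ACO1 at 24 h (-0.10) turned. TFRC from 12 to 24 h also turned with limma-voom (-0.042) and with the 2 groups alone (-0.0078), as did SLC40A1 with quality weights (0.10) and IREB2 with quality weights (0.017), DESeq2 (0.0195) and median-of-ratios factors (0.0192). Leaving out 1 library turned TFRC at 6 h (range -0.43 to 0.066) and from 12 to 24 h (-0.68 to 0.45), FTH1 (-0.20 to 0.76), NCOA4 (-0.42 to 0.42), SLC40A1 (-0.41 to 0.018) and IREB2 (-0.31 to 0.20) from 12 to 24 h, NCOA4 (-0.093 to 0.042) and SLC40A1 (-0.10 to 0.77) from 6 to 12 h, SLC40A1 at 6 h (-0.23 to 0.67) and 24 h (-0.042 to 0.60), and ACO1 at 24 h (-0.094 to 0.11).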

Other observations

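The genes whose log2 CPM most resembled that of each member over the 11 libraries are given as a description, over 13931 genes with a symbol and a mean of at least 1 CPM. The libraries share time, depth and scaling. The pair nearest to FTL was MRPS12 (r = 0.997), of the mitochondrial ribosome, and the pseudogene COX6A1P2 (0.997), and for FTH1 the pseudogenes KRT17P2 (0.976) and RPS2P17 (0.958). For SLC11A2 it was ZNF641 (0.992) and GTF2IP20 (0.989), for TFRC NBPF3 (0.925) and SUZ12P1 (0.925), and for SLC40A1 GPNMB (0.815) and DSTNP2 (0.785). NCOA4 was nearest to GLUD2 (0.98) and TEX10 (0.978), and ACO1 to RPP14 (0.973) and HRH1 (0.95). IREB2 was nearest to ZGRF1 (0.982) and BRD8 (0.978), and FBXL5 to NUF2 (0.974), of the kinetochore, and EXOSC8 (0.971), of the RNA exosome.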
